A study of Mus musculus with 6 samples.

Results

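The Ms4a genes encode membrane proteins that cross the membrane 4 times. The best known of them is CD20, the surface antigen of B cells. The measured set was taken from 10 listed names: every probe of the deposited array table whose gene symbol or synonym was one of Ms4a6d, Ms4a1, Ms4a2, Ms4a4b, Ms4a4c, Ms4a4d, Ms4a6b, Ms4a6c, Ms4a7 and Ms4a11. Ms4a11 is an older name of Ms4a6d and no probe in the table is named for Ms4a6c, so the set held 8 genes of 16390 named in the table, each with 1 probe. All 8 were measured on every array, so all 8 entered the fit, for which a probe needed 2 values in each group of 3. The set was chosen by family name, but selected on the contrast of these same samples, in which the siSpt6 and siControl intensities of Ms4a6d and others were already known to differ. The members' values in that contrast are therefore given as a description and without p-values, and they support nothing further.

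The cells were CH12F3-2A, a mouse B cell lymphoma line that switches from IgM to IgA when stimulated with CD40 ligand, interleukin 4 and TGF-beta (CIT). Both groups were electroporated with siRNA, a control siRNA (siControl, 3 samples) or siRNA against Spt6 (siSpt6, 3 samples, described as Stealth-type oligonucleotides), received CIT after 24 h and were harvested after a further 24 h. No group without CIT and no group without siRNA was used here. Cy5-labelled RNA of each sample was read on its own 1-colour array, and the values are deposited intensities in arbitrary units on a linear scale. Spt6 is a histone chaperone that accompanies transcribing RNA polymerase II, and the study asked how it bears on the targeting of AID, the enzyme that starts class switching.

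MS4A proteins are small, and several of them sit beside other receptors and change how these signal. CD20 is found with the B cell antigen receptor and takes part in its calcium response. The protein of Ms4a2 is the beta chain of the high-affinity IgE receptor. Most of the others are best known from myeloid cells and T cells. In the mouse the genes lie side by side in 1 cluster, in which the Ms4a4 and Ms4a6 branches have multiplied by duplication.

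The arrays held 21526 to 22372 values each, out of 23473 probes, their medians were equal within 0.00109 on the log2 scale, and log2 intensities correlated across probes with r between 0.988 and 0.991 within a group and between 0.975 and 0.981 across groups (probes are not independent replicates). The probe of Supt6, the gene of Spt6, read 33.1, 32.1 and 32.1 in siControl against 25.1, 21.8 and 28.1 in siSpt6. That is a log2 difference of -0.38 (SE 0.13), which missed the threshold over all probes (limma adjusted p = 0.0973). It passed after cyclic loess normalization and among bright probes only (limma adjusted p = 0.0491 and 0.032). The setting of bright probes only went by the higher of a probe's 2 group means. Supt6 averaged 32.4 in siControl and 25 in siSpt6, the latter below the array median. The probe could thus enter that setting through its siControl values, so its pass there adds nothing. In 11 other alternative settings, including the omission of each array in turn, Supt6 did not pass (limma adjusted p up to 0.226). The groups' protocols are worded separately in the labels, and no source used here says whether their arrays were run together, so an array batch and the siRNA cannot be told apart. Whether the samples within a group were grown apart is not stated in the labels. The p-values therefore reflect the spread among these 6 samples alone, and that spread may be technical. The precision is limited by having 3 arrays per group.

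Of the 8 genes, 4 were higher in siSpt6 past the threshold of the fit over all probes (Ms4a6d, Ms4a4c, Ms4a4b and Ms4a7), 1 was lower (Ms4a6b) and 3 did not pass it (Ms4a1, Ms4a2 and Ms4a4d). Over all 21584 tested probes 16.3% passed the same threshold, 7.43% higher and 8.9% lower (limma, Benjamini-Hochberg adjusted p under 0.05). Because the contrast was known when the genes were chosen, nothing is read from the difference between these shares. The values of the 2 groups did not overlap for 6 of the 8 genes, 5 with all siSpt6 values higher and 1 with all lower. Among probes with 6 values the groups were likewise separate for 37.3%, with siSpt6 higher for 16.9% and lower for 20.4%. The median log2 difference of the 8 was 1.04, against 0.01 over all tested probes.

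**Figure D1:**
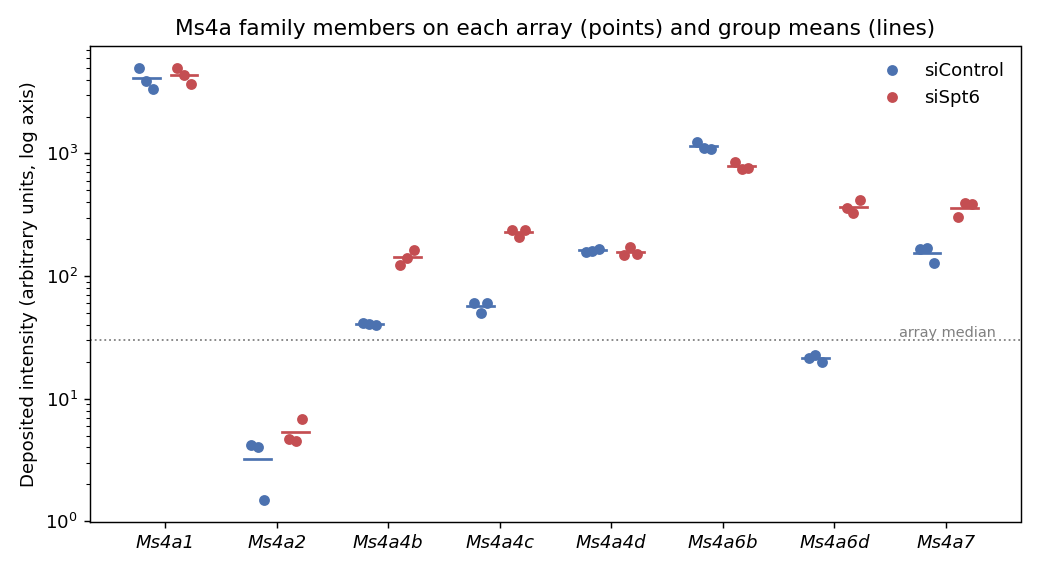
Deposited intensity (arbitrary units, log axis) of the 8 Ms4a genes on each of the 3 siControl (blue) and 3 siSpt6 (red) arrays; short lines are group means and the dotted line is the array median. The red points of Ms4a4b, Ms4a4c, Ms4a6d and Ms4a7 lie clear above the blue ones, those of Ms4a6b lie below, and those of Ms4a1 and Ms4a4d overlap with them.

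Ms4a1 encodes CD20, the antigen to which therapeutic B cell-depleting antibodies are directed. Its probe read 5016, 3864 and 3382 in siControl, compared with 4960.1, 4348 and 3683 in siSpt6. The lowest and highest of the 6 values both came from siControl, so the siSpt6 values lay inside the siControl range. The means were 4087 ± 839 and 4331 ± 639 (SD, n = 3 each), with a log2 difference of 0.09 (SE 0.19). That estimate was -0.03 without siControl replicate 3 and -0.01 without siSpt6 replicate 1. After quantile and cyclic loess normalization it was 0.39 and 0.40, without passing the threshold. The estimate thus depended on the scaling, and no direction is given for CD20 mRNA at this precision.

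Ms4a2, the IgE receptor beta chain, belongs to mast cells and basophils. Its probe was dim, at 4.17, 4.06 and 1.49 in siControl and 4.67, 4.49 and 6.83 in siSpt6. All siSpt6 values were higher than all siControl values, but the log2 difference of 0.83 had an SE of 0.41 and did not pass the threshold. The difference was 0.35 when siControl replicate 3, the lowest value, was left out. RefSeq lists the symbols Ms4a1 and Ms4a2 also as older synonyms of each other, and both probes were read by the current symbol.

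The Ms4a4 branch held a pair of genes that rose and 1 that did not. Ms4a4c, a close relative of Ms4a4b, read 59.9, 50.2 and 60.5 in siControl and 238, 207 and 237 in siSpt6. All siSpt6 values were above all siControl values, and the rise was 4-fold (log2 difference 2.00, SE 0.13). Ms4a4b, reported as an adaptor of the receptor GITR in T cells, read 41.3, 40.7 and 40.0 in siControl and 124, 140.2 and 163 in siSpt6. This was a 3.48-fold rise (log2 difference 1.80, SE 0.13) from the most even control values of the set, 40.7 ± 0.635 (SD, n = 3), to 142 ± 19.5.

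Ms4a4d, from the same branch, stayed within its own spread. Its probe read 158, 160.1 and 167 in siControl and 148, 173 and 150.0 in siSpt6, so the groups overlapped. The log2 difference was -0.05 (SE 0.12) and turned to 0.02 and 0.01 after quantile and cyclic loess normalization. A rise the size of those of Ms4a4b and Ms4a4c was thus not seen for this probe under any of 13 alternative settings, where the difference ran from -0.12 to 0.02.

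The 2 measured genes of the Ms4a6 branch moved in opposite directions. Ms4a6d, best known from macrophages, where its protein was described with the receptor Vsig4, read 21.3, 22.9 and 20.0 in siControl and 359, 329 and 419 in siSpt6. The lowest siSpt6 value was far above the highest control value, and group means were 21.4 ± 1.48 and 369 ± 45.9 (SD, n = 3 each). The log2 difference of 4.10 (SE 0.14), a 17.2-fold rise, was the 2nd largest of all tested probes. The siControl values were below the array median, and the array background is not known, so the fold rests in part on a dim signal. Adding a pseudocount of 2.66 to all values gave a log2 difference of 3.94.

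Ms4a6b, a member best known from T cells, was the only one of the 8 that was lower past the threshold. It read 1232, 1106 and 1084 in siControl and 844, 741 and 765 in siSpt6, with no overlap. The means were 1141 ± 80.3 and 783 ± 54.2 (SD, n = 3 each), a level 1.46-fold lower (log2 difference -0.54, SE 0.12). This call was less steady than those of the 4 rises. After quantile and cyclic loess normalization the difference was -0.32 and -0.34 and no longer passed the threshold, and it was also lost without any 1 of 5 arrays, all but siSpt6 replicate 1 (differences from -0.60 to -0.48 over the 6 omissions).

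Ms4a7, expressed in macrophages, rose 2.36-fold. It read 165, 169 and 127 in siControl and 303, 397 and 386 in siSpt6, and the lowest siSpt6 value was above the highest control value. The means were 154 ± 23.2 and 362 ± 51.1 (SD, n = 3 each), with a log2 difference of 1.24 (SE 0.17). The 4 rises kept their direction and their side of the threshold under all 13 alternatives run. The setting of bright probes only went by the higher of a probe's 2 group means. Ms4a6d, dim in siControl, could enter it through its siSpt6 values, so that setting adds nothing for this gene. Over the 13 alternatives Ms4a6d ran from 3.94 to 4.18, Ms4a4c from 1.91 to 2.07, Ms4a4b from 1.70 to 1.89 and Ms4a7 from 1.11 to 1.36. In RNA from a whole culture, a change in every cell and a larger change in some of the cells cannot be told apart.

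The upstream sequences are shown because Ms4a4c and Ms4a4b rose together while their neighbours Ms4a6b and Ms4a4d did not. Each is the 250 bases before the gene's start on mouse chromosome 19, from RefSeq (GRCm38.p6), written 5′ to 3′ on the gene's strand. Capitals mark runs of at least 12 identical bases in an alignment of the pair Ms4a4c and Ms4a4b and, for Ms4a6b, in an alignment with Ms4a6c; lower case only means that no such run was marked.
Ms4a4c (chr19:11407411-11407660, plus strand): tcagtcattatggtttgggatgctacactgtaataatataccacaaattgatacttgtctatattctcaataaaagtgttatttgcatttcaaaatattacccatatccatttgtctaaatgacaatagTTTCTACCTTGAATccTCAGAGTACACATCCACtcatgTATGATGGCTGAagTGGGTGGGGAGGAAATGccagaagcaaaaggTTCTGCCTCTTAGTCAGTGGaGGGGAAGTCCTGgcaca
Ms4a4b (chr19:11443308-11443557, plus strand): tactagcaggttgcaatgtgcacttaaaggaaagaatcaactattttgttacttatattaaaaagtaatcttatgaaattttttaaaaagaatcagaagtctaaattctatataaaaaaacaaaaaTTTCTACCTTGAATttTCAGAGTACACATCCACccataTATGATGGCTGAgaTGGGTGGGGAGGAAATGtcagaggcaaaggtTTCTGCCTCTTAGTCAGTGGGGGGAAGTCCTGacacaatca
Ms4a6b (chr19:11518309-11518558, plus strand): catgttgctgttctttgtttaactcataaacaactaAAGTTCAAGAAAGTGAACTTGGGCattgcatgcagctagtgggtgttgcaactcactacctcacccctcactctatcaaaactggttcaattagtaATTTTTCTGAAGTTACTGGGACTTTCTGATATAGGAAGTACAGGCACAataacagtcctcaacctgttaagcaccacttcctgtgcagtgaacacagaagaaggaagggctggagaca
Ms4a4d (chr19:11536544-11536793, plus strand): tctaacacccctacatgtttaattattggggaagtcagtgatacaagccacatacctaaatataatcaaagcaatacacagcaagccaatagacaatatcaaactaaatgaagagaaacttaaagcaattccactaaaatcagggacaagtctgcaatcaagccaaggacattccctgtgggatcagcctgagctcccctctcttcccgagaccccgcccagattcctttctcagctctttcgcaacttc
Ms4a7 (chr19:11336147-11336396, minus strand, the outermost of 2 listed windows): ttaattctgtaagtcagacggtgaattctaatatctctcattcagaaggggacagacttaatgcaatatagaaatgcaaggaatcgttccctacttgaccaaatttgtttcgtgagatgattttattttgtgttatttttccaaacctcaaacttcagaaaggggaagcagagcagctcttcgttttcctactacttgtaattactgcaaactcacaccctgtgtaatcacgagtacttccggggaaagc

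Ms4a4c and Ms4a4b shared 6 such runs, 92 bases in all with the longest at 20 bases, all of them on the gene's side of the window's middle. Among 153 pairs formed from 18 Ms4a genes with a listed window, 3 pairs shared any run of this length. The other pairs were Ms4a6b with Ms4a6c (2 runs, 72 bases, the longest 48) and Ms4a8a with Ms4a18 (1 run of 12 bases). The window of Ms4a7 shared no such run with those of Ms4a4b and Ms4a4c, although all 3 genes rose. No window was listed for Ms4a6d or Ms4a1. Since the array's probe sequences were not used here, whether the probes of Ms4a4b and Ms4a4c each read only their own transcript was not tested. Nor was it tested whether the probe of Ms4a6b also read the transcript of Ms4a6c, for which no probe is named.

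Motifs were searched on both strands of the same windows as plain letters. The octamer of B cell promoters (ATTTGCAT) was found in 1 Ms4a window, that of Ms4a4c, from 170 to 163 bases before the start, and in 1.61% of the windows of all 27025 genes. The Ets core GAGGAA lay in a shared run of both Ms4a4c (61 to 56 bases before the start) and Ms4a4b (64 to 59 bases), and in 23.1% of all windows. It was also found in the windows of Ms4a14 and Ms4a15, which have no probe named for them here. The windows of Ms4a6b, Ms4a4d and Ms4a7 had no match to either. No window of a measured member matched the interferon response element (3.04% of all windows), the gamma-activated site TTCNNNGAA (7.18%), the AP-1 site TGANTCA (6.87%), the E-box CACGTG (6.05%) or the longer Ets site GAGGAAGT (2.44%), which contains the core above. A match describes letters in the window and is not evidence of binding, and the lack of one says nothing of a factor.

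Order along the chromosome was taken from RefSeq (GRCm38.p6). From Ms4a1 onwards the tested genes follow as Ms4a5, Ms4a7, Ms4a4c, Ms4a4b, Ms4a6b, Ms4a4d, Ms4a6d, Ms4a2 and Ms4a3. The 4 genes that rose were therefore not an unbroken row: Ms4a7, Ms4a4c and Ms4a4b followed one another among the tested genes, and Ms4a6b (lower) and Ms4a4d (not past the threshold) stood between them and Ms4a6d. Of 20 tested genes that flank the cluster, 1 rose and 0 fell (limma; 1 was higher and 0 lower at an unadjusted p under 0.05), with a median log2 difference of 0.00 against 0.01 over all probes. The one was Cd5, a surface receptor of B-1 and T cells, with 352, 431 and 360.3 in siControl and 557, 672 and 549 in siSpt6 (log2 difference 0.64, SE 0.14, limma adjusted p = 0.0272). That call was lost without any 1 of 5 arrays, all but siControl replicate 2 (limma adjusted p up to 0.0926). Olfr1418 had a larger difference that did not pass the threshold (1.22, SE 0.79, limma adjusted p = 0.359). It read 57 on siSpt6 replicate 1, and 8.12 and 6.81 on replicates 2 and 3.

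**Figure D2:**
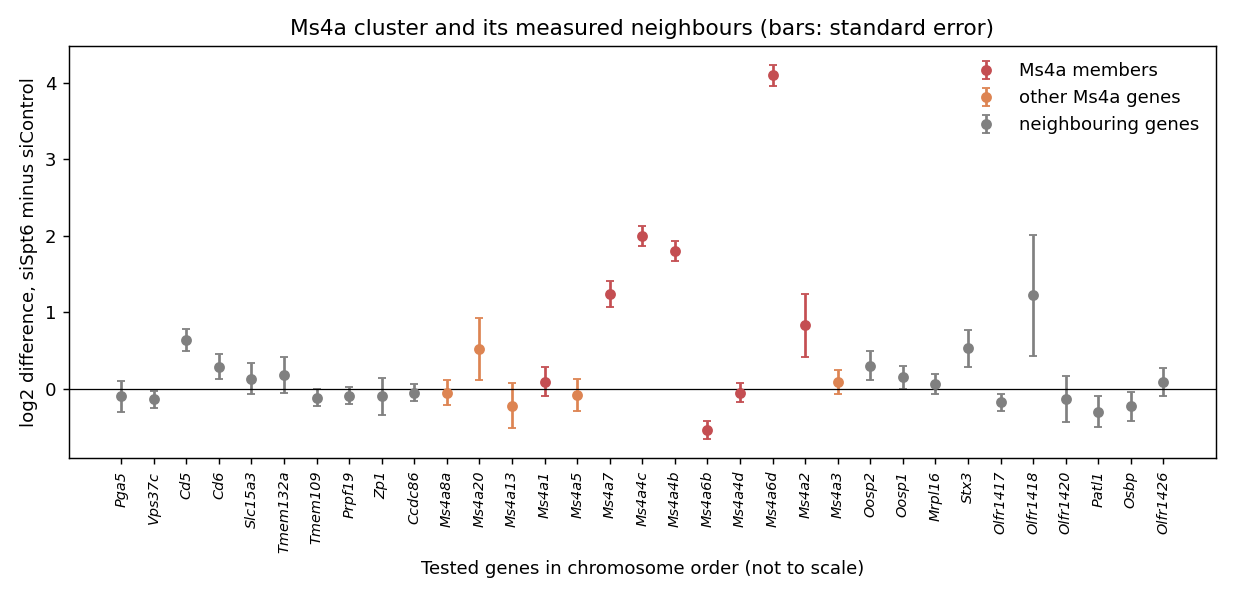
log2 difference between siSpt6 and siControl (points, with standard errors as bars) of the tested genes of the Ms4a cluster and 10 tested genes on either side, in chromosome order and not to scale. Ms4a6d stands at 4.10, and Ms4a7, Ms4a4c and Ms4a4b at 1.24, 2.00 and 1.80, while Ms4a6b lies at -0.54 and most of the flanking genes lie close to 0.

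The rest of the family was read from a separate list of every other Ms4a gene of RefSeq plus the relatives Tmem176a and Tmem176b, which encode cation channel proteins of the same fold. Of 14 listed genes 9 had a probe and 7 were tested, of which 0 rose (limma; 0 were higher and 2 lower at an unadjusted p under 0.05), 2 fell and 5 did not pass, with a median log2 difference of -0.08. The falls were both in the Tmem176 pair, which lies outside the cluster. Tmem176a read 1262, 1305 and 1366 in siControl and 647, 601 and 686 in siSpt6, a 2.04-fold fall (log2 difference -1.03, SE 0.11, limma adjusted p = 0.00253). Tmem176b read 3729.6, 4079 and 4786 in siControl and 2010.3, 2152 and 2654 in siSpt6, a 1.85-fold fall (log2 difference -0.89, SE 0.16, limma adjusted p = 0.0121). Neither pair of groups overlapped, and both calls held under all 13 alternatives.

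None of the tested Ms4a genes outside the listed members passed the threshold. Ms4a5, a testis gene, had means of 40.1 ± 11.9 and 37.1 ± 2.80 (SD, n = 3 each) and a log2 difference of -0.08 (SE 0.21). Ms4a8a had means of 17.1 ± 2.55 and 16.5 ± 1.88 and a difference of -0.05 (SE 0.16). The probes of Ms4a3, which marks granulocyte and monocyte progenitors, Ms4a13 and Ms4a20 read below 6 on every array with a value, with differences of 0.09, -0.22 and 0.52 (SE 0.16, 0.29 and 0.41). Ms4a10 and Ms4a19 had too many blanks to be tested. Over these 5 tested Ms4a genes limma adjusted p lay between 0.446 and 0.868.

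The genes whose course over the 6 arrays was most like that of Ms4a6d were found by the root mean square distance of log2 values, each set relative to the gene's own siControl mean, among 11552 genes. They were Ly6i (a Ly6 surface protein, distance 0.24), Ephx1 (an epoxide hydrolase, 0.47), Nr4a1 (an orphan nuclear receptor, 0.80), Rell1 (0.84) and Hfe (an iron regulator, 0.99). Ly6i read 11.5, 10.9 and 9.49 in siControl and 140.3, 143 and 157 in siSpt6, a log2 difference of 3.79 (SE 0.13) beside 4.10 for Ms4a6d. The measure reflects mainly the size of the rise, and no family member was among the 5.

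Markers of other cell types were set beside the members because Ms4a2, Ms4a4b, Ms4a6b, Ms4a6d and Ms4a7 are best known outside B cells. Of 20 macrophage and monocyte markers 16 were tested, 2 rose and 0 fell (limma; 4 were higher and 2 lower at an unadjusted p under 0.05), with a median log2 difference of 0.20. The list's summed intensity was 289 to 327 in siControl and 341 to 425 in siSpt6, and 14 of the 16 probes had means below the array median. The exceptions were Cd68, a lysosomal protein, with means of 182 and 217, and Csf1r, the receptor of a macrophage growth factor, with 60.5 and 65.3, and neither passed the threshold. The surface markers Cd14, Itgam and Fcgr1 had means of 3.34, 1.82 and 1.29 in siControl and 2.98, 1.24 and 1.44 in siSpt6, each over the 2 or 3 arrays with a value. The 10th percentile of all deposited values was 2.66. Other dim markers had higher values in siSpt6 without passing the threshold and without overlap between the groups. The chemokine receptor gene Cx3cr1 had the largest difference of the list, with 5.17, 14.1 and 5.8 in siControl and 14.2, 27.4 and 24.4 in siSpt6 (2.82-fold, SE of the log2 difference 0.42, limma adjusted p = 0.0565). Mertk and Marco had differences of 0.55 and 0.45 (limma adjusted p = 0.0931 and 0.166). Itgam and Vsig4 went the other way, also without overlap (-0.55 and -0.50, limma adjusted p = 0.106 and 0.123). The 2 rises were C1qc, a complement subunit, from 7.83 ± 0.465 to 13.4 ± 0.823 (log2 difference 0.78, limma adjusted p = 0.00668), and the chemokine receptor Ccr2, from 2.69, 4.69 and 6.02 to 9.37, 9.48 and 8.15 (1.08, limma adjusted p = 0.0451). The call of Ccr2 was lost under quantile and cyclic loess normalization (limma adjusted p = 0.0657 and 0.0867) and without siControl replicate 2 or any 1 siSpt6 array (limma adjusted p up to 0.121).

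Of 11 mast cell markers 8 were tested, 1 rose and 0 fell (limma; 2 were higher and 0 lower at an unadjusted p under 0.05; median -0.01, summed intensity 253 to 293 in siControl and 591 to 645 in siSpt6). The rise was that of Hpgds, a prostaglandin D synthase also known from other immune cells, from 230.1, 237 and 209 to 578, 582 and 541 (log2 difference 1.33, SE 0.11, limma adjusted p = 0.00109), which made up most of the sum. Kit, Cpa3 and Fcer1a, which define mast cells, had means of 1.83, 7.32 and 1.63 in siControl and 4.52, 5.37 and 1.48 in siSpt6, with Fcer1a blank on 1 siSpt6 array. The groups did not overlap for Kit, with 2.12, 1.79 and 1.59 in siControl and 2.87, 7.84 and 2.85 in siSpt6 (limma adjusted p = 0.101). The brighter Mcpt4 and Tpsab1 had means of 21.9 and 11.9 in siControl and 26.8 and 10.1 in siSpt6, and neither passed the threshold. Of 12 T cell markers 9 were tested, 0 rose and 1 fell (limma; 0 were higher and 1 lower at an unadjusted p under 0.05; median -0.06, summed intensity 1399 to 1563 in siControl and 912 to 1063 in siSpt6). The fall was Cd28, a costimulatory receptor, from 1371 ± 71.0 to 877 ± 67.8 (log2 difference -0.65, limma adjusted p = 0.0130), a call that did not hold under quantile normalization (limma adjusted p = 0.0675) or when siControl replicate 2 was omitted (0.0534). Of the genes of the CD3 complex, Cd247 had means of 46.9 and 38.7 in siControl and siSpt6, above the array median, and Cd3d 20.8 and 20.7. Cd3e had means of 2.24 and 2.75 and Cd3g of 2.03 and 1.82, with Cd3e blank on 1 siSpt6 array, and none of the 4 passed the threshold. The part of these markers in the members' differences was not tested.

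**Figure D3:**
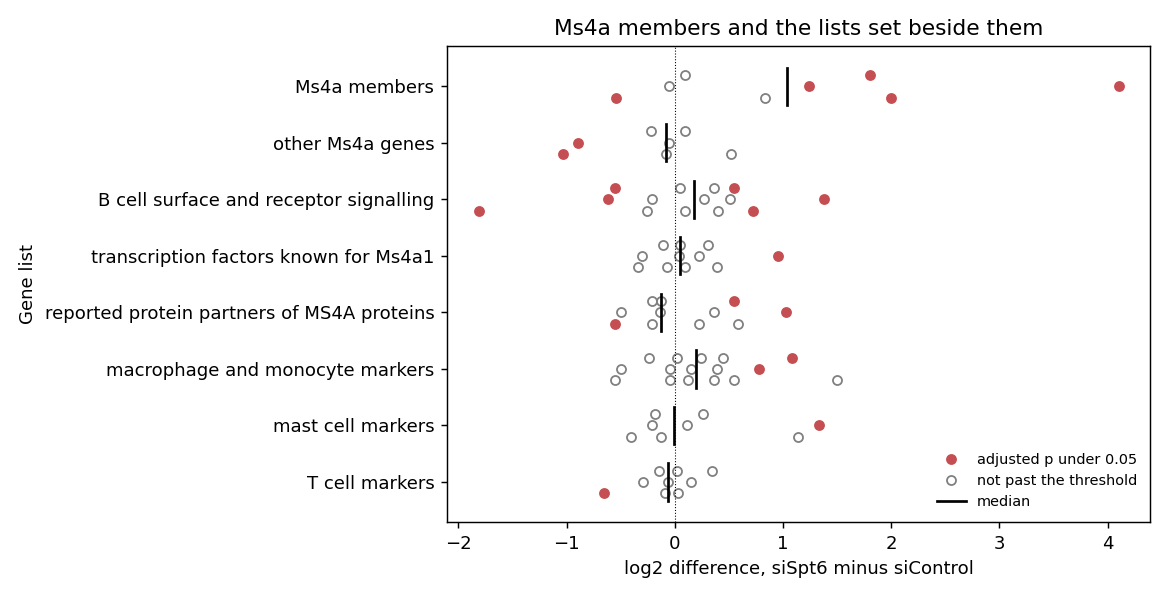
log2 difference between siSpt6 and siControl for each tested gene (1 point per gene) of the Ms4a members and of 7 lists; filled points passed the threshold over all probes and black bars are medians. The members' median is 1.04, with Ms4a6d at 4.10, and the other lists' medians lie between -0.13 and 0.20.

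B cell genes were read as a check of the label and as the setting of CD20. Of 16 genes of the B cell surface and receptor signalling 14 were tested, of which 3 rose and 3 fell (median log2 difference 0.18). Cd79a and Cd79b, the signalling chains of the antigen receptor, had means of 868 and 5787 in siControl (n = 3 each), so the cells carried the transcripts of B cells. Fcrla, an Fc receptor-like protein of B cells, rose from 183, 177 and 151 to 461, 417 and 447 (log2 difference 1.38, SE 0.13, limma adjusted p = 0.00136). Fcer2a, the low-affinity IgE receptor CD23, fell from 120.1, 109 and 115 to 39.6, 26.0 and 34.2 (log2 difference -1.81, SE 0.17, limma adjusted p = 0.00156). These 2 calls held when any 1 array was left out. Cd79b and the kinase gene Blk rose (0.55 and 0.72) and the inhibitory receptor gene Cd22 and the kinase gene Syk fell (-0.62 and -0.55), with limma adjusted p between 0.0281 and 0.0393. All 4 were less steady when 1 array was left out. Cd22 was lost without any 1 of the 6 arrays, the others without any 1 of 5 (limma adjusted p up to 0.115 over the 4 genes). Syk was also lost after quantile normalization (limma adjusted p = 0.0592). Cd22 kept its call after quantile and cyclic loess normalization. So did Cd79b (0.90 and 0.89) and Blk (0.90 and 0.88), with larger differences. Cd72, at 0.51 as deposited (limma adjusted p = 0.0868), passed after both (limma adjusted p = 0.0417 and 0.0365). Blnk passed after cyclic loess normalization (limma adjusted p = 0.0477) and not after quantile normalization (0.0603). The list counted 4 rises and 2 falls after quantile normalization, and 5 and 3 after cyclic loess normalization.

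Transcription factors known to act on the CD20 gene mostly did not pass the threshold. Of 12 listed 11 were tested, 1 rose and 0 fell (limma; 3 were higher and 1 lower at an unadjusted p under 0.05; median 0.05). The rise was Foxo1, from 183, 189 and 205 to 337, 361 and 425 (log2 difference 0.95, SE 0.13, limma adjusted p = 0.00535). Spi1, the gene of PU.1, had a difference of 0.39 (limma adjusted p = 0.0777) and passed after quantile and cyclic loess normalization (limma adjusted p = 0.0361 and 0.0367). Of 13 genes of reported partners of MS4A proteins 11 were tested, 2 rose and 1 fell (median -0.13). Fcer1g, the gamma chain that joins the Ms4a2 product in the IgE receptor and serves other Fc receptors, rose from 949.9, 831 and 883 to 1717, 1712 and 2016 (log2 difference 1.03, SE 0.13, limma adjusted p = 0.00351) and kept its call without any 1 array. The others were Cd79b and Syk, given above. Vsig4, described with the Ms4a6d product, and Tnfrsf18, the gene of GITR, had differences of -0.50 and -0.21 (limma adjusted p = 0.123 and 0.676). The probe of Vsig4 was dim, with means of 6.54 in siControl and 4.69 in siSpt6.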

How the data were processed

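Array intensities of 6 samples were used, 3 siControl and 3 siSpt6, grouped by their labels. The authors deposited 1 table of linear intensity values. Per the labels' protocols, RNA was amplified into amino allyl RNA and coupled to Cy5 for a TORAY array; the sources used here do not state how background was handled or arrays were scaled. Array medians agreed within 0.00109 on the log2 scale, so values were log2-transformed as they stood. Blanks (4.69% to 8.29% of probes per array) were missing values. Probe symbols came from a platform table and were updated with RefSeq names (GRCm38.p6): 16631 of 23473 probes had 1 symbol, 0 had several and 6842 had none. Of the named, 12622 were current, 3947 an older symbol of 1 gene, 59 shared by several genes and 3 unmatched. Where several probes named 1 gene, the brightest stood for it.

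Probes with at least 2 values in each group (21584) were fitted with limma 3.58.1 (lmFit, eBayes) in R 4.3.3, two-sided, group as the only term, with Benjamini-Hochberg adjustment over all tested probes and a threshold of 0.05. A fold is the log2 difference taken back to the linear scale. The fit was tested on simulated data. The members and lists were chosen with earlier results of these data known. Named were all members, the rest of the family, Supt6, up to 2 rises and 2 falls per other list (all where 5 or fewer were counted), defining markers, and the 5 genes nearest to Ms4a6d with 6 values, clone names left out and a siControl mean at or above the 25th percentile; further genes of a list were named after their values were seen. Alternatives were quantile and cyclic loess normalization, a pseudocount of 2.66 (the 10th percentile), complete probes only, bright probes only, eBayes with trend and robust options, a replicate block, and omission of each array in turn. A probe was bright if the higher of its 2 group means of log2 values reached the median of the tested probes. Averaging a gene's probes changes nothing here, since each member had 1. Sequences were compared with Biopython 1.88.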

Additional observations from a re-analysis of the deposited data

How the results depend on the processing

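The counts for the 8 Ms4a genes lay between 4 and 5 over 13 alternatives; the 4 rises were called in each and Ms4a6b in 6. Over all probes 3525 changed as deposited, 45.5% of them higher, against 57.3% after quantile and 53.6% after cyclic loess normalization and 38.3% among bright probes; leaving out 1 array gave 1958 to 2407 changed probes. With 1 array left out the group of 2 is assumed to vary like the other. The replicate numbers share no stated litter, batch or day, and same-numbered arrays deviated together with r of 0.351, 0.0759 and 0.262, so they were not taken as pairs, although every array correlated best with its own number; with the replicate block 3594 probes and 5 members changed, Cd79b and Ccr2 did not pass the threshold (limma adjusted p = 0.0769 and 0.075), the partner gene Stim1 did (0.0383, against 0.0575), and the macrophage markers counted 3. The list of B cell genes counted 2 to 3 calls with 1 array left out (6 as deposited), partners 1 to 2 (3), macrophage markers 1 to 2 (2), T cell markers 0 to 1 (1) and flanking genes 0 to 1 (1). After quantile and cyclic loess normalization the B cell genes counted 6 and 8 calls. The transcription factors counted 2 and 2 there and the macrophage markers 1 and 1. T cell markers counted 0 after quantile normalization (limma, 1 at an unadjusted p under 0.05). Signs turned in 5 differences, none of them past the threshold. Ms4a4d was 0.02 and 0.01 after quantile and cyclic loess normalization. With 1 array left out Ms4a1 ran from -0.03 to 0.25, Ms4a3 from -0.03 to 0.15, Ms4a5 from -0.23 to 0.15 and Ms4a8a from -0.18 to 0.02. The cause was not tested. Dim probes, Ms4a2 among them, have no stated detection limit.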
